A study of Homo sapiens with 12 samples.

Results

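RRAD (Ras associated with diabetes) and GEM (GTP-binding protein overexpressed in skeletal muscle) are 2 small GTPases of the RGK family, and their messenger RNAs were followed through the 4 groups of an RNA-seq experiment. They are 2 of the 25365 gene names in the table of expression values, and both are among the 11881 genes that were tested, whose mean reached 1 FPKM (fragments per kilobase of transcript, corrected for sequencing depth). The pair was chosen by its FPKM values in these same libraries: RRAD was picked as the messenger RNA most raised in PARP3-/- cells, and GEM as its relative. Levels of the pair by genotype are therefore given as a description, without a test, and the pair is tested only for its response to pyridostatin. Other genes are also tested between genotypes.

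All libraries came from A549, an established epithelial cell line from human lung adenocarcinoma. Cells were wild-type or PARP3-/-, the latter lacking a segment of the gene for poly(ADP-ribose) polymerase 3 that had been removed with Cas9 before cloning by serial dilution, so a feature of the clone and an effect of the genotype cannot be told apart. Each genotype received vehicle (DMSO) or 1 μM pyridostatin, a small molecule that stabilizes G-quadruplex DNA, for 24 h, which made 4 groups of 3 biological replicates and 12 libraries in all. The experiment asked whether loss of PARP3 alters transcription with and without this ligand.

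The RGK proteins (RRAD, GEM, REM1 and REM2) stand apart from other Ras-like GTPases because they are controlled largely through how much of them is made. They bind the beta subunits of voltage-gated calcium channels and reduce calcium entry, they bind calmodulin and 14-3-3 proteins, and RRAD and GEM also act on the shape of the actin cytoskeleton. RRAD is best known from skeletal and cardiac muscle, where it restrains L-type calcium current, and it is also a transcriptional target of p53 that has been linked to reduced glucose uptake. GEM was found as a gene induced by mitogens.

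The libraries held approximately 21700000 to 30700000 reads, estimated from the smallest steps between low values. PARP3 itself ranged from 3.40 to 4.05 FPKM over wild-type libraries and from 4.07 to 4.92 FPKM over those labelled PARP3-/-, so its summed transcript level was not lower in the latter. The paper shows the deletion in the first exon by sequencing, and a value for the whole gene does not say whether the gene was disrupted. Genotypes are given by their labels. All 6 epithelial markers examined (keratins, EPCAM and CDH1) reached 1 FPKM on average over the 12 libraries, with summed levels of 6910 to 8630 FPKM. The second wild-type vehicle library stood somewhat apart, with the lowest median of the tested genes (3.45 on the log2 scale, against 3.49 to 3.55 in the others) and the highest sum of FPKM. It also held the highest RRAD and the lowest GEM value of its group, and results that rest on it are given with and without it.

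RRAD was a gene of middling expression in wild-type cells. With vehicle its 3 libraries held 5.98, 7.12 and 5.96 FPKM (6.35 ± 0.665, SD, n = 3). With pyridostatin they held 5.72, 6.35 and 5.77 FPKM (5.94 ± 0.349, SD, n = 3). The values of the 2 wild-type groups overlapped, and of the tested genes 36.0% with vehicle and 33.3% with pyridostatin had a lower group mean.

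In the libraries labelled PARP3-/- RRAD was among the better expressed genes. With vehicle the values were 28.9, 30.5 and 29.2 FPKM (29.5 ± 0.833, SD, n = 3). With pyridostatin they were 34.0, 33.7 and 30.5 FPKM (32.8 ± 1.93, SD, n = 3). All 6 of these libraries lay far above all 6 wild-type libraries, and RRAD now exceeded 76.3% and 78.8% of the tested genes.

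The ratio of the group means of RRAD, libraries labelled PARP3-/- over wild-type, was 4.65 with vehicle and 5.51 with pyridostatin. Without the second wild-type vehicle library the ratio with vehicle was 4.95. On the log2(FPKM + 1) scale used for the fits, on which low genes are understated, the differences were 2.06 (standard error 0.067) and 2.28 (standard error 0.067). These libraries are bulk RNA, in which fewer cells of a type and less RNA per cell cannot be told apart, so the values do not say whether all cells or some of them carried more RRAD.

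**Figure D1:**
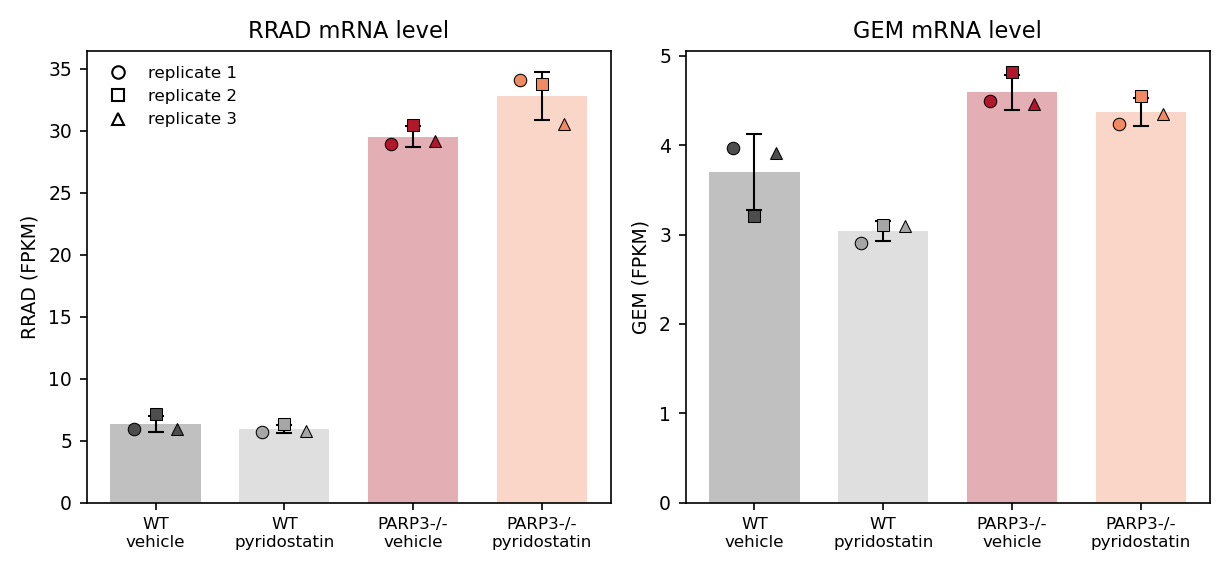
RRAD (left) and GEM (right) in FPKM in each of the 12 libraries, by group. Symbols mark the replicates, bars the group means and error bars the SD (n = 3). RRAD means are 6.35 and 5.94 FPKM in wild-type cells against 29.5 and 32.8 FPKM in libraries labelled PARP3-/-, whereas GEM stays between 3.04 and 4.59 FPKM.

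GEM was expressed at a lower level and differed far less. In wild-type cells it was 3.97, 3.21 and 3.92 FPKM with vehicle (3.70 ± 0.424, SD, n = 3). With pyridostatin it was 2.91, 3.11 and 3.09 FPKM (3.04 ± 0.112, SD, n = 3). Every wild-type pyridostatin library thus lay below every wild-type vehicle library, although the gap to the second vehicle library was narrow.

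In the libraries labelled PARP3-/- GEM was 4.50, 4.81 and 4.46 FPKM with vehicle (4.59 ± 0.194, SD, n = 3). With pyridostatin it was 4.23, 4.54 and 4.35 FPKM (4.37 ± 0.159, SD, n = 3). These 2 groups overlapped, and both lay above the wild-type groups. The ratio of group means by genotype was 1.24 with vehicle and 1.44 with pyridostatin, or 1.16 with vehicle when the second wild-type vehicle library was left out.

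Both genes were higher in libraries labelled PARP3-/- without overlap, under vehicle and under pyridostatin. Of all tested genes, 15.0% were higher without overlap with vehicle, 19.3% with pyridostatin and 6.56% when the 6 libraries of each genotype were compared as 1 set. Since this contrast chose the pair, nothing is read from the count. Among the tested genes, RRAD had the 28th largest positive difference with vehicle and the 23rd with pyridostatin, and GEM the 780th and the 343rd.

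The names above RRAD were small RNAs. All 27 of them with vehicle were small nucleolar RNAs or microRNAs, led by SNORD28, SNORD79, SNORD72, MIR939 and MIR147B. With pyridostatin 21 of 22 were, led by SNORD100, MIR637, SNORD87, MIR1306 and MIR3191, and the remaining name was the short RNA SNAR-E. Only 1 of these names in each comparison had an adjusted p under 0.05 (limma).

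Among the 10953 protein-coding genes tested, RRAD therefore ranked first in both comparisons, but the place depended on the scale. The values just below it with vehicle were 2.04 for SLX1B, a structure-specific nuclease subunit whose value is uncertain because a near-identical copy exists, and 1.88 for UPK1B, a uroplakin of the urothelial surface. SLX1B exchanged places with RRAD when any one of 3 vehicle libraries was left out (wild-type replicates 1 and 3 and PARP3-/- replicate 2), and with pyridostatin its difference had the opposite sign (0.887 against 4.94 FPKM). With pyridostatin the next values were 1.78 for UPK1B and 1.69 for PXDN, a peroxidase of the extracellular matrix.

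UPK1B and PXDN were lower genes than RRAD with larger ratios. UPK1B went from 0.709 to 5.27 FPKM with vehicle, a ratio of 7.44, and PXDN from 0.418 to 3.53 FPKM, a ratio of 8.46. When 0.1 instead of 1 was added before taking logarithms, RRAD ranked 8th among protein-coding genes with vehicle and 3rd with pyridostatin. RRAD is not first in the study's own fold changes either, which came from DESeq2 on read counts. There PXDN and UPK1B lie above it with vehicle, and PXDN with pyridostatin. In absolute terms RRAD differed by 23.2 and 26.8 FPKM, against 4.56 and 4.18 FPKM for UPK1B.

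Within each library, the ratio of RRAD to GEM, which are scaled to transcript length and can be compared as FPKM, moved with the label. It was 1.75 ± 0.407 in wild-type vehicle libraries and 1.96 ± 0.0877 in wild-type pyridostatin libraries (SD, n = 3 each). In libraries labelled PARP3-/- it was 6.43 ± 0.107 with vehicle and 7.50 ± 0.512 with pyridostatin (SD, n = 3 each). RRAD thus made up 59.2% to 68.4% of the summed RGK level in wild-type vehicle libraries and 86.0% to 88.7% in all libraries labelled PARP3-/-.

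The remaining RGK genes contributed almost nothing. REM1, which is known from heart, was listed at 0 in all 12 libraries. REM2, known from brain, ranged from 0.0623 to 0.199 FPKM and was under the filter, so the family was represented by RRAD and GEM. Their transcripts share no run of 75 bases, the read length, and the longest run they share is 17 bases.

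The number of reads limits the precision of both genes. RRAD rested on approximately 210 to 310 reads in wild-type libraries and 990 to 1400 in libraries labelled PARP3-/-. Its coefficient of variation was 10.5% in the wild-type vehicle group, where counting error alone is about 5.9% to 6.9%, and 2.82% to 5.89% in the other groups. GEM rested on approximately 170 to 280 reads, for which counting error alone is about 6.0% to 7.7%. Its coefficient of variation was 11.5% in the wild-type vehicle group, again the largest. In the other groups it was 3.63% to 4.23%, less than counting error alone would give, so these small SDs can understate the uncertainty.

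The response to pyridostatin was tested next, as it had no part in choosing the pair. RRAD did not pass the test in either genotype. In wild-type cells the mean with pyridostatin was 0.936 times that with vehicle (difference on the log2 scale -0.08, standard error 0.067, limma adjusted p = 0.552), and without the second vehicle library the change was -0.389%. In libraries labelled PARP3-/- it was 1.11 times that with vehicle (0.14, standard error 0.067, limma adjusted p = 0.268). There all 3 pyridostatin libraries lay above all 3 vehicle libraries by a narrow margin (lowest 30.55 against highest 30.47 FPKM), as was the case for 16.6% of tested genes.

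Averaged over the genotypes, the effect of pyridostatin on RRAD was 0.03 (standard error 0.0474, limma adjusted p = 0.693), with a 95% confidence interval of -0.07 to 0.14, that is, 0.951-fold to 1.10-fold on the FPKM + 1 scale. An exact two-sided permutation test within genotypes gave p = 0.58, where 400 arrangements allow 0.005 at the lowest. Whether the effect differed between genotypes was tested in limma as an interaction (0.22, standard error 0.0947, 95% interval 0.01 to 0.43, adjusted p = 0.999). After adjustment 0.0% of the 11881 genes passed this limma test, and RRAD was among the 4.39% with an unadjusted p under 0.05.

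In wild-type cells the GEM mean with pyridostatin was 0.822 times that with vehicle, which missed the threshold over all genes (difference on the log2 scale -0.21, standard error 0.0649, 95% interval -0.36 to -0.07, limma adjusted p = 0.096). The 2 groups did not overlap, as was the case for 9.71% of tested genes in this direction, and 1.38% of tested genes passed the adjusted test in this direction. Without the second vehicle library the change was -22.9% and passed (-0.29, limma adjusted p = 0.0071), and it also passed after quantile normalization (-0.26, limma adjusted p = 0.0164) and with the medians of all libraries set equal (-0.25, limma adjusted p = 0.0347). In libraries labelled PARP3-/- the ratio was 0.953 (-0.06, standard error 0.0649, limma adjusted p = 0.701).

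Averaged over the genotypes, the effect on GEM was -0.14 (standard error 0.0459, limma adjusted p = 0.0767). The exact two-sided permutation test within genotypes, for this single gene, gave p = 0.015, or 0.065 when any one of the wild-type pyridostatin libraries was left out. The interaction was 0.16 (standard error 0.0918, limma adjusted p = 0.999). Whether GEM responds differently in the 2 genotypes is therefore not shown.

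The response of RRAD was set beside that of 32 established p53 targets, a list that leaves RRAD out. Averaged over genotypes, 30 of the 31 tested targets rose with pyridostatin and none fell (limma adjusted p under 0.05), where 7.71% of all tested genes rose and 6.24% fell. Their median difference was 0.46 on the log2 scale, against 0.00 for all tested genes, and the count was 26 to 31 over the alternatives run. In wild-type cells 26 rose (median 0.52, against 2.79% of tested genes), and in libraries labelled PARP3-/- 29 rose (median 0.47, against 3.05% of tested genes). With the medians of all libraries set equal, the share of rises among all genes called in the averaged comparison went from 55.3% to 39.9%, and the count of p53 targets stayed at 30.

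BTG2, an antiproliferative cofactor, went from 4.51 ± 0.143 to 11.7 ± 0.482 FPKM in wild-type cells and from 5.52 ± 0.744 to 12.7 ± 0.308 FPKM in libraries labelled PARP3-/- (SD, n = 3 each). CDKN1A, the cyclin-dependent kinase inhibitor p21, went from 87.0 ± 7.27 to 193 ± 3.40 FPKM in wild-type cells (SD, n = 3 each). Averaged differences were 1.14 for BTG2 and 1.10 for CDKN1A, and 0.91 and 0.79 for FDXR, a mitochondrial ferredoxin reductase, and SESN2, a stress-induced inhibitor of mTORC1 (limma adjusted p from 5.37e-07 to 5.27e-06).

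RRAD lay at the lower edge of this list. Averaged over genotypes, 30 of the 31 targets had a larger difference than RRAD (0.03), and 30 lay above the upper bound of its confidence interval (0.14). The target below it was PMAIP1, which encodes the BH3-only protein NOXA (0.00, limma adjusted p = 0.977). In libraries labelled PARP3-/-, where RRAD had its larger estimate, 29 of 31 targets exceeded it and 24 lay above its upper bound of 0.29. For GEM all 31 targets had a larger difference in each of these comparisons.

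**Figure D2:**
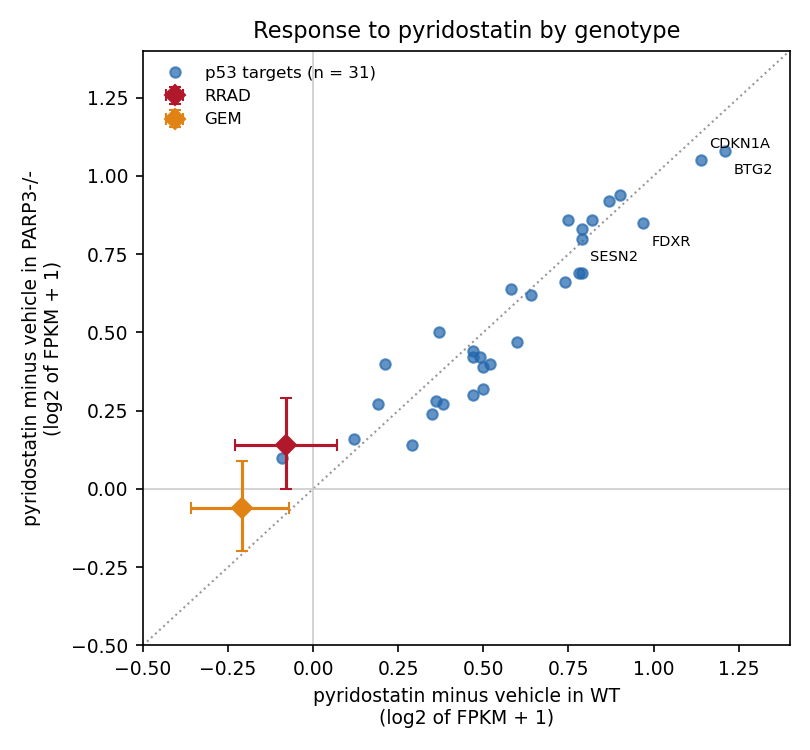
Difference between pyridostatin and vehicle on the log2(FPKM + 1) scale in wild-type cells (horizontal axis) and in libraries labelled PARP3-/- (vertical axis). Circles are the 31 tested p53 targets, diamonds RRAD and GEM with 95% confidence intervals, and the dotted line marks equal differences. The targets run up to 1.21 and 1.08, while RRAD (-0.08 and 0.14) and GEM (-0.21 and -0.06) sit near 0.

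Between the genotypes the median differences of the same list were small, and every call was for a higher level in libraries labelled PARP3-/-. With vehicle 10 of 31 targets were higher in libraries labelled PARP3-/- and none lower (limma adjusted p under 0.05, median 0.13, against 6.4% of tested genes higher, 3.01% lower and a median of 0.01). With pyridostatin 5 were higher and none lower (median 0.10, against 7.07% of tested genes higher and 3.85% lower). With the medians of all libraries set equal, the share of higher genes among all calls with vehicle went from 68.0% to 51.7%, and the count of targets from 10 to 6. The count with vehicle was also 6 without wild-type vehicle replicate 3 or PARP3-/- vehicle replicate 2 or 3, and 2 in a fit of the vehicle libraries alone. The count with pyridostatin was 8 without wild-type vehicle replicate 2, and 2 or 3 without any one of the 6 pyridostatin libraries.

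The differences of these targets by genotype ran from -0.16 to 0.73 with vehicle and from -0.24 to 0.77 with pyridostatin, against 2.06 and 2.28 for RRAD. CDKN1A differed by 0.20 (limma adjusted p = 0.0543) and MDM2, the ubiquitin ligase of p53, by 0.13 (limma adjusted p = 0.364). The difference of RRAD was larger than that of every tested target on the list. This follows from its choice as the most raised messenger RNA and is not a result about the targets.

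Other Ras-family GTPases gave a scale for the levels of the pair. Of 34 other family members, REM1 and REM2 included, 20 were tested and 3 were at 0 in all libraries. RRAD ranked 13th by level of the 36 genes in wild-type vehicle libraries and 15th in wild-type pyridostatin libraries, close to RIT1 and RAP2B. It ranked 6th in both groups labelled PARP3-/-, below RRAS, HRAS, RAP1B, RHEB and RALB, whereas GEM was 18th in all 4 groups.

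RRAD was chosen as the most raised messenger RNA, so the differences of the other members by genotype were bound to be smaller on this scale. With vehicle 3 of the 20 were higher in libraries labelled PARP3-/- and none lower (median 0.07, highest 0.40), where 6.4% of all tested genes were higher. With pyridostatin 7 were higher and none lower (median 0.08, highest 0.48), where 7.07% of all tested genes were higher. The highest with vehicle was MRAS, a Ras paralogue of muscle and other tissues, at 1.75 ± 0.0726 against 2.64 ± 0.207 FPKM (SD, n = 3 each, limma adjusted p = 0.00112, named after its values were seen). The first count was 1 without PARP3-/- vehicle replicate 3 or in a fit of the vehicle libraries alone, and the second was 4 without wild-type pyridostatin replicate 3 or PARP3-/- pyridostatin replicate 2. Averaged over genotypes, pyridostatin raised 2, RAP2B (0.25, limma adjusted p = 0.00243) and RASL11A (0.30, limma adjusted p = 0.00866), and lowered none, where 7.71% of all tested genes rose.

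**Figure D3:**
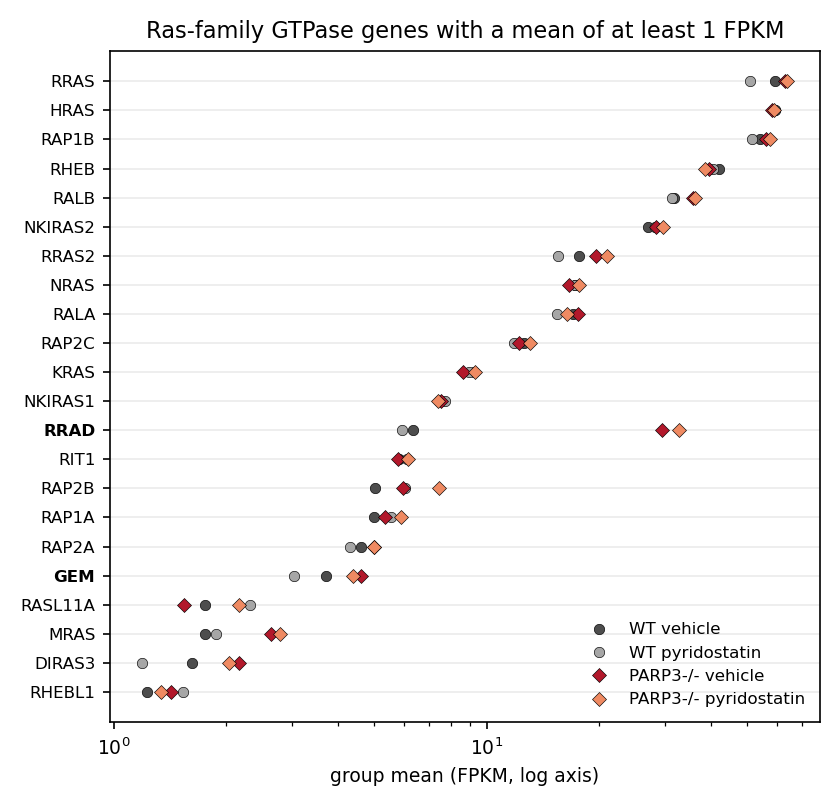
Group means in FPKM, on a log axis, of the 22 tested Ras-family genes, ordered by wild-type vehicle level. Circles are wild-type and diamonds libraries labelled PARP3-/-. RRAD moves from 6.35 and 5.94 FPKM to 29.5 and 32.8 FPKM, while the 4 points of most other genes lie close together.

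Genes for subunits of voltage-gated calcium channels were sparsely expressed. Of 26 such genes 9 were tested, and no L-type pore subunit was among them. CACNA1G and CACNA1H, both T-type, were the only pore subunits tested, at 2.36 and 2.40 FPKM on average over the 12 libraries. CACNB3, the most abundant of the beta subunits to which RGK proteins bind, was at 6.84 ± 0.658 FPKM in wild-type vehicle libraries and 8.05 ± 0.208 FPKM in those labelled PARP3-/- (SD, n = 3 each).

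With vehicle 3 of the 9 were higher in libraries labelled PARP3-/- and none lower (CACNA1G, CACNB3 and CACNG6, median of the list 0.13), against 6.4% of all tested genes higher. With pyridostatin 4 were (also CACNA1H, median 0.21), against 7.07% of all tested genes. These calls were unstable: the count with vehicle was 0 or 1 without wild-type vehicle replicate 1 or 3 or PARP3-/- vehicle replicate 2 or 3, 1 after quantile normalization or with the medians of all libraries set equal, and 0 in a fit of the vehicle libraries alone. The count with pyridostatin was 1 or 2 without any one wild-type pyridostatin library or PARP3-/- pyridostatin replicate 2 or 3, and 2 with the replicate number as a block. CACNB3 with pyridostatin (0.29, limma adjusted p = 0.00617) passed under all alternatives run. Pyridostatin itself, averaged over genotypes, raised 1 of the 9, CACNA1H (0.18, limma adjusted p = 0.0282), and lowered none, where 7.71% of all tested genes rose. That call was lost without any one wild-type pyridostatin library, PARP3-/- vehicle replicate 1 or 3, or PARP3-/- pyridostatin replicate 2 or 3.

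Of 23 genes for proteins that bind RGK GTPases or are bound up with them (calmodulins, calmodulin-dependent kinases, 14-3-3 proteins and others), 21 were tested. None passed between genotypes with vehicle, in either direction, against 6.4% of all tested genes higher and 3.01% lower, and the median difference was 0.02. With pyridostatin only YWHAQ, the 14-3-3 theta protein, was higher (268 ± 12.5 against 309 ± 3.36 FPKM, SD, n = 3 each, limma adjusted p = 0.00958), where 7.07% of all tested genes were. Averaged over genotypes, 1 of the 21 rose with pyridostatin and 2 fell, where 7.71% of all tested genes rose and 6.24% fell. Pyridostatin lowered YWHAH, the 14-3-3 eta protein (-0.19, limma adjusted p = 0.00339). It raised GMIP, whose protein binds GEM (0.16, limma adjusted p = 0.0241), a call that was lost without wild-type pyridostatin replicate 3 or PARP3-/- pyridostatin replicate 2, after quantile normalization and with the medians of all libraries set equal.

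Transcripts driven by SRF and YAP, which report on the actin cytoskeleton, were examined next. Of 16 tested, 7 were higher and none lower with vehicle (median 0.14, against 6.4% of all tested genes higher), and 6 were higher and none lower with pyridostatin (median 0.17, against 7.07%). TAGLN, an actin-binding protein, was at 1.99 ± 0.192 FPKM in wild-type vehicle libraries against 4.43 ± 0.153 FPKM in those labelled PARP3-/- (SD, n = 3 each, limma adjusted p = 1.57e-05). AXL, a receptor tyrosine kinase, was at 59.0 ± 1.19 against 83.8 ± 3.69 FPKM with pyridostatin (SD, n = 3 each, limma adjusted p = 1.53e-05). Both were named after their values were seen. The count with vehicle was 4 in a fit of the vehicle libraries alone.

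Averaged over genotypes, pyridostatin raised 6 of the 16 SRF and YAP transcripts and lowered 1, against 7.71% of all tested genes raised and 6.24% lowered. ACTA2, smooth muscle actin, rose most (0.77, limma adjusted p = 2.56e-05), followed by CTGF, a matricellular growth factor (0.48, limma adjusted p = 0.00555), AMOTL2, an angiomotin (0.18, limma adjusted p = 0.00703), and FHL2, a LIM-domain cofactor (0.16, limma adjusted p = 0.0181). TPM1, a tropomyosin, was the one that fell (-0.09, limma adjusted p = 0.036), a call that was lost without wild-type vehicle replicate 3, any one PARP3-/- vehicle library, wild-type pyridostatin replicate 1 or 2 or PARP3-/- pyridostatin replicate 2 or 3, after quantile normalization and with the replicate number as a block. The count of rises was 3 without PARP3-/- pyridostatin replicate 2.

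Of 20 tested genes of glycolysis and glucose uptake, 3 were lower in libraries labelled PARP3-/- with vehicle and 4 with pyridostatin, and none higher (medians -0.08 and -0.09), where 3.01% and 3.85% of all tested genes were lower. The largest difference was that of SLC2A3, the glucose transporter GLUT3, at 9.55 ± 0.493 against 3.83 ± 0.388 FPKM with vehicle and 10.5 ± 0.286 against 4.18 ± 0.339 FPKM with pyridostatin (SD, n = 3 each, limma adjusted p = 1.9e-06 and 1.59e-06, named after its values were seen). SLC2A1, the transporter GLUT1, differed by -0.05 (limma adjusted p = 0.583) with vehicle. The count with pyridostatin was 8 without wild-type vehicle replicate 2 and 2 without wild-type pyridostatin replicate 1 or 3 or PARP3-/- pyridostatin replicate 1 or 2. Averaged over genotypes, pyridostatin raised 1 of the 20, HK1, a hexokinase (0.15, limma adjusted p = 0.0123), and no other passed. Of all tested genes, 7.71% rose and 6.24% fell.

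GEM is known as an early-response transcript, so 20 immediate early genes were examined, of which 17 were tested. With vehicle 5 were higher in libraries labelled PARP3-/- and none lower (median 0.37, against 6.4% of all tested genes higher), and with pyridostatin 4 were (median 0.21, against 7.07%). FOSL1 and JUN, both AP-1 subunits, passed in both comparisons and under all alternatives run, FOSL1 at 51.8 ± 3.89 against 68.7 ± 4.61 FPKM with vehicle (SD, n = 3 each, limma adjusted p = 0.0021, both named after their values were seen). The count with vehicle was 2 in a fit of the vehicle libraries alone, 3 without wild-type vehicle replicate 1 or PARP3-/- vehicle replicate 2 and 8 without PARP3-/- vehicle replicate 3, and with pyridostatin it was 2 without wild-type pyridostatin replicate 1 or PARP3-/- pyridostatin replicate 1 or 2.

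Pyridostatin, averaged over genotypes, raised 4 immediate early genes and lowered none, where 7.71% of all tested genes rose, whereas the estimate for GEM was below 0. These were ATF3 (0.82, limma adjusted p = 0.00666), a stress-induced transcription factor, IER5 (0.35, limma adjusted p = 0.00022), FOSL2 (0.24, limma adjusted p = 0.0129) and KLF4 (0.15, limma adjusted p = 0.0098).

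The genes beside RRAD differed less by genotype than RRAD, as its choice for this difference implies. A gene near GEM differed more than GEM itself. RRAD lies on chromosome 16, between CDH16, a cadherin that was under 1 FPKM in all 4 groups (0.178 to 0.340 FPKM), and FAM96B, an iron-sulfur assembly factor (103 FPKM in wild-type vehicle and 109 FPKM in PARP3-/- vehicle libraries, difference 0.10, limma adjusted p = 0.601). The other near neighbours were CES2, a carboxylesterase (0.26, limma adjusted p = 0.00253), CES3 (0.07, limma adjusted p = 0.614), PDP2 (0.04, limma adjusted p = 0.738) and CA7, listed at 0. Of the 5 genes on either side, 7 were tested, and 2 were higher and none lower with vehicle (CES2 and CES4A), where 6.4% of all tested genes were higher.

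CES2 also passed with pyridostatin (0.20, limma adjusted p = 0.0101), as the sole neighbour of RRAD to do so, where 7.07% of all tested genes were higher. With vehicle CES2 passed under all alternatives run, and the count was 1 without wild-type vehicle replicate 1 or 3, any one PARP3-/- vehicle library or wild-type pyridostatin replicate 1 or 3. It was also 1 with 0.1 added before taking logarithms, after quantile normalization, with the medians of all libraries set equal, in a fit of the vehicle libraries alone and with the replicate number as a block. With pyridostatin the count was 0 without wild-type pyridostatin replicate 1, 2 without wild-type pyridostatin replicate 2 or in a fit of the pyridostatin libraries alone, and 3 without wild-type vehicle replicate 2. The largest difference among the 7 was 0.27 with vehicle and 0.35 with pyridostatin, far below 2.06 and 2.28 for RRAD.

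GEM lies on chromosome 8 between CDH17, a cadherin of the intestinal type (-0.04, limma adjusted p = 0.712 with vehicle), and RAD54B, a homologous recombination factor (0.05, limma adjusted p = 0.788). PDP1, a pyruvate dehydrogenase phosphatase gene beyond CDH17, was the neighbour that passed, at 2.89 ± 0.433 against 4.22 ± 0.357 FPKM with vehicle (0.43, limma adjusted p = 0.0157) and at 2.84 ± 0.390 against 4.70 ± 0.174 FPKM with pyridostatin (0.58, limma adjusted p = 0.00279, SD, n = 3 each). Both differences exceeded those of GEM itself (0.25 and 0.41), and the call with vehicle was lost without PARP3-/- vehicle replicate 1 or 2 and in a fit of the vehicle libraries alone. KIAA1429, an m6A methyltransferase subunit, differed by 0.03 with vehicle (limma adjusted p = 0.908). MIR378D2 was listed at 0, and FSBP was under the filter. Of the 5 genes on either side, 6 were tested, and PDP1 alone passed by genotype. Of all tested genes, 6.4% were higher with vehicle and 7.07% with pyridostatin.

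**Figure D4:**
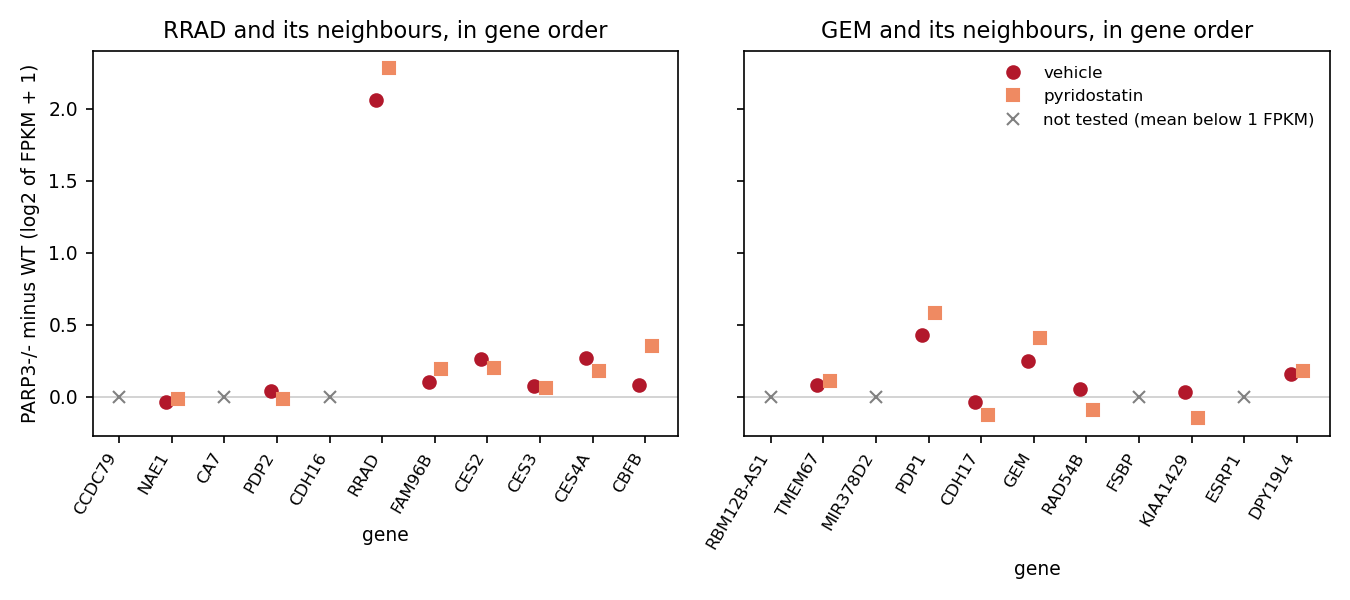
Difference between libraries labelled PARP3-/- and wild-type libraries on the log2(FPKM + 1) scale for RRAD (left), GEM (right) and the 5 genes of the table on either side of each, in gene order. Circles are vehicle and squares pyridostatin, and crosses on the zero line mark genes that were not tested and have no value. RRAD stands at 2.06 and 2.28 among neighbours of at most 0.35, and GEM at 0.25 and 0.41 beside PDP1 at 0.43 and 0.58.

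The genes whose profile over the 12 libraries was most like that of RRAD were sought among the 290 tested genes whose SD was at least 0.5 times that of RRAD, by the root mean square distance between centred log2 values. They were UPK1B (0.207), PXDN (0.270), ADAM19 (0.332), SPARC (0.365) and ANXA10 (0.374). ADAM19, a metalloprotease, went from 2.13 to 8.44 FPKM with vehicle, SPARC, a matrix glycoprotein, from 0.851 to 4.34 FPKM, and ANXA10, an annexin, from 6.08 to 17.9 FPKM with pyridostatin. GEM lay at a distance of 0.929 from RRAD. Since the profile of RRAD is mainly the genotype difference that chose it, the names closest to it describe that difference only.

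For GEM the candidates were 6602 genes, and the closest were FHL1 (0.0662), MBOAT2 (0.0665), SLC25A37 (0.0670), PHLDA1 (0.0674) and BIRC3 (0.0684). All 5 had their highest mean in PARP3-/- vehicle and their lowest in wild-type pyridostatin libraries. This is the order seen for GEM, which their choice by likeness to it brings about. FHL1, a LIM-domain protein, was at 13.8, 12.3, 18.1 and 17.1 FPKM in wild-type vehicle, wild-type pyridostatin, PARP3-/- vehicle and PARP3-/- pyridostatin libraries. With so many candidates and small distances these names are a description of 12 libraries.

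Because RRAD is a muscle gene, markers of muscle and of other cell types were summed. The 7 skeletal or cardiac muscle markers summed to 0 to 0.245 FPKM in the 12 libraries, and MYH7, MYOD1, MYOG and CKM were at 0 in all of them. The 5 fibroblast markers summed to 0.607 to 1.03 FPKM in wild-type libraries and 1.24 to 1.72 FPKM in libraries labelled PARP3-/-, and COL1A1 alone reached 1 FPKM on average over all samples. The 3 endothelial markers summed to 0.116 to 0.213 and 0.245 to 0.375 FPKM. The 4 leukocyte markers summed to 2.83 to 4.55 and 4.39 to 6.30 FPKM, where CD14 alone reached 1 FPKM on average and CD3E was at 0. Within each treatment the sums of fibroblast, endothelial and leukocyte markers were higher in libraries labelled PARP3-/- without overlap. The same held for 15.0% of all tested genes with vehicle and 19.3% with pyridostatin, and these sums were low. Over both treatments the leukocyte sums overlapped, reaching 4.55 FPKM in wild-type libraries and starting at 4.39 FPKM in those labelled PARP3-/-. The values of RRAD lay much further apart, at 5.72 to 7.12 FPKM against 28.9 to 34.0 FPKM. The part of these markers in the difference of RRAD was not tested.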

How the data were processed

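Total RNA of 12 A549 cultures was made into stranded mRNA libraries and sequenced as single-end 75-base reads. The authors deposited 1 table of FPKM values with a column per library, each of which was used (0 columns were left out), and replicates were not pooled. The submitters' processing notes name bcl2fastq 2.16, STAR 2.5 and Cufflinks, and the builds hg19 and mm9. The annotation is not given in the sources used here. Alignment, the assignment of reads and scaling to length and depth are thus fixed in the values. The study's own tests were run with DESeq2 on read counts, which were not used here.

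Samples were grouped by their labels. FPKM values were put on the log2(FPKM + 1) scale without further scaling, and limma 3.58.1 (R 4.3.3, eBayes with a trend) fitted 1 model of the 4 groups to the 11881 genes that passed the filter on the mean. Adjusted p-values are those of Benjamini and Hochberg over all these genes, and a call means an adjusted p under 0.05. The procedure was tested on simulated data. RRAD and GEM were also compared between treatments by an exact permutation test within genotypes. The members and the gene lists were chosen with earlier results of these data known, and no list was tested as a set. Besides the pair, up to 4 genes per list with the smallest p in the averaged pyridostatin comparison, the nearest genes on the chromosome, the 5 largest genotype differences and the 5 closest profiles were named by rule. Other genes named for the genotype comparisons, MRAS, the calcium channel subunits and YWHAQ among them, were chosen after their values were seen. The results of 1 list and of a few single genes are not reported here.

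Gene order, gene types and older symbols came from the NCBI RefSeq gene table for GRCh38.p14, and no coordinates are given because the files name another build. Approximate depth was computed from the lowest values of 110 genes with GENCODE transcript lengths, and it covers counting error only. Python 3.11.15, numpy 2.4.6, pandas 2.3.3 and matplotlib 3.10.9 were used.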

Additional observations from a re-analysis of the deposited data

How the results depend on the processing

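The direction of each RRAD and GEM value held under all alternatives run. Adding 0.1 in place of 1 before taking logarithms moved the genotype difference of RRAD to 2.20 with vehicle and 2.44 with pyridostatin, and that of GEM to 0.51 with pyridostatin. The effect of pyridostatin on GEM passed the threshold after quantile normalization (-0.26 in wild-type cells and -0.18 averaged, limma adjusted p = 0.0164 and 0.00815), with the library medians set equal (-0.25 and -0.16, limma adjusted p = 0.0347 and 0.0213) and without wild-type vehicle replicate 2 (-0.29 and -0.17, limma adjusted p = 0.0071 and 0.00435). The cause was not tested. With each library left out in turn, this effect ranged from -0.29 to -0.17 in wild-type cells and from -0.17 to -0.11 averaged, and the exact permutation p for GEM from 0.01 to 0.065. These alternatives to the exact test were chosen after the data were seen. No RRAD result on pyridostatin crossed the threshold under any alternative, with limma adjusted p from 0.0847 to 1.0.

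Same-numbered libraries deviated from their group means with correlations of -0.120 to 0.216 across genes, so the replicate numbers were not taken as pairs. With the replicate number as a block the averaged effects were 0.03 for RRAD and -0.14 for GEM (limma adjusted p = 0.578 and 0.116), and no call for the pair changed. The count of p53 targets that rose was 30 with the block. The filter at 5 FPKM removes GEM, and a fit of the libraries of 1 comparison has no averaged or interaction value. The p-values measure the spread between 3 replicates a group, and a genotype effect cannot be told apart from a feature of the cloned line.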
